A study of Mus musculus with 2 samples.

Results

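The genes described here encode enzymes that methylate DNA or remove that mark, enzymes that add or remove methyl and acetyl groups on histones, ATP-dependent nucleosome remodellers, and the corepressor scaffolds that carry deacetylases. They were chosen by symbol: the DNA methyltransferases and TETs, the KDM, KMT, SETD, PRC2, HDAC, sirtuin and acetyltransferase families, and the SMARC, CHD, ARID, BRD, MIER and MTA genes. The rule found 114 genes among 18193 with a probe set assigned to 1 symbol, and 286 probe sets measured them. Total RNA came from Neuro2a cells, an established mouse neuroblastoma line. One group was transfected with a control (non-specific) siRNA and the other with an siRNA against Tmem132a (mKIAA1583), a membrane protein gene, and each group was 1 sample hybridised to 1 Affymetrix Mouse Genome 430 2.0 array. The labels used here give neither the siRNA sequences nor the time after transfection. The groups follow the sample titles, since the description of the Tmem132a siRNA sample repeats that of the control. With 1 array per group, no test between the groups was possible, no value has a replicate error, and the number of arrays limits the precision. Each difference is given by its size only, as a log2 ratio: the MAS5 signal with the Tmem132a siRNA divided by that with the control siRNA.

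These proteins act on the packaging of DNA. DNA methyltransferases place methyl groups on cytosine, mostly at CpG sites, and TET dioxygenases oxidise them. Histone methyltransferases and acetyltransferases mark histone tails, demethylases and deacetylases take the marks off, and remodellers such as the BAF and NuRD complexes slide or evict nucleosomes. In neuronal lineages several of these complexes exchange subunits as progenitors become neurons.

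The targeted gene went with the label: the array of the Tmem132a siRNA had a Tmem132a signal of 435.6 against 1825.5 for the control siRNA, or 23.9% of it. Markers of the sympathetic neuroblast lineage were bright: 13 of the 14 genes with a probe set passed the signal filter described below, among them Phox2a (5143.9 and 4666.5) and Tubb3 (4083.4 and 3169.2), while the acetylcholine synthesis gene Chat did not (46.4 and 10). These markers were lower together on the Tmem132a siRNA array, with 13 of 13 ratios below 0, where 48.2% of all genes past the filter were. Their median was -0.20 and their summed signal 66131.3 against 79160.2. Most differences were small: the ratios ran from -1.19 (Ache) to -0.03 (Chgb). A probe set each of Gata2 (0.12) and Prph (0.19) was higher. Their part in the results below was not tested, and in such bulk RNA fewer cells of a type and less RNA per cell cannot be told apart. Other cell types were checked by their markers, and the filter was passed by 0 fibroblast, 1 glial, 2 immune and 1 epithelial or endothelial genes. No signal in these lists was above 169.8. Their summed signals were 519.8 and 338.1 for fibroblasts, 681.3 and 861.6 for glia, 625.7 and 767.4 for immune cells, and 382.1 and 512.3 for epithelium and endothelium, control siRNA first.

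The filter kept probe sets with a 2-array mean signal of 77.25 or more, which is the median over the whole array. It was passed by 215 of the 286 probe sets and 106 of the 114 genes, and the gene ratio is the mean over its probe sets that passed. Most of the 106 differed little: 94 lay within 1.5-fold. Of the others, 2 (1.89%) were at least 2-fold lower, Mier1 and Dnmt3b, and 0 at least 2-fold higher, where 2.44% and 2.10% of all 10678 measured genes were. At 1.5-fold, 11 (10.4%) were lower and 1 (0.943%) was higher, where 9.11% and 8.82% of all genes were. The share that was lower thus lay near the background, and the share that was higher lay below it. Among the 80 genes past a stricter filter at the 75th percentile, 7 were at least 1.5-fold lower and 3 higher, where 6.74% and 5.71% of all genes past it were. At 2-fold, 0 of the 80 were lower and 1 higher, where 1.31% and 0.642% of all were. The median ratio of the 106 was -0.05, against 0.02 over all genes, and 58.5% of ratios were below 0, against 48.2%. The SD of the ratios was 0.36 over these genes and 0.49 over all genes.

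**Figure D1:**
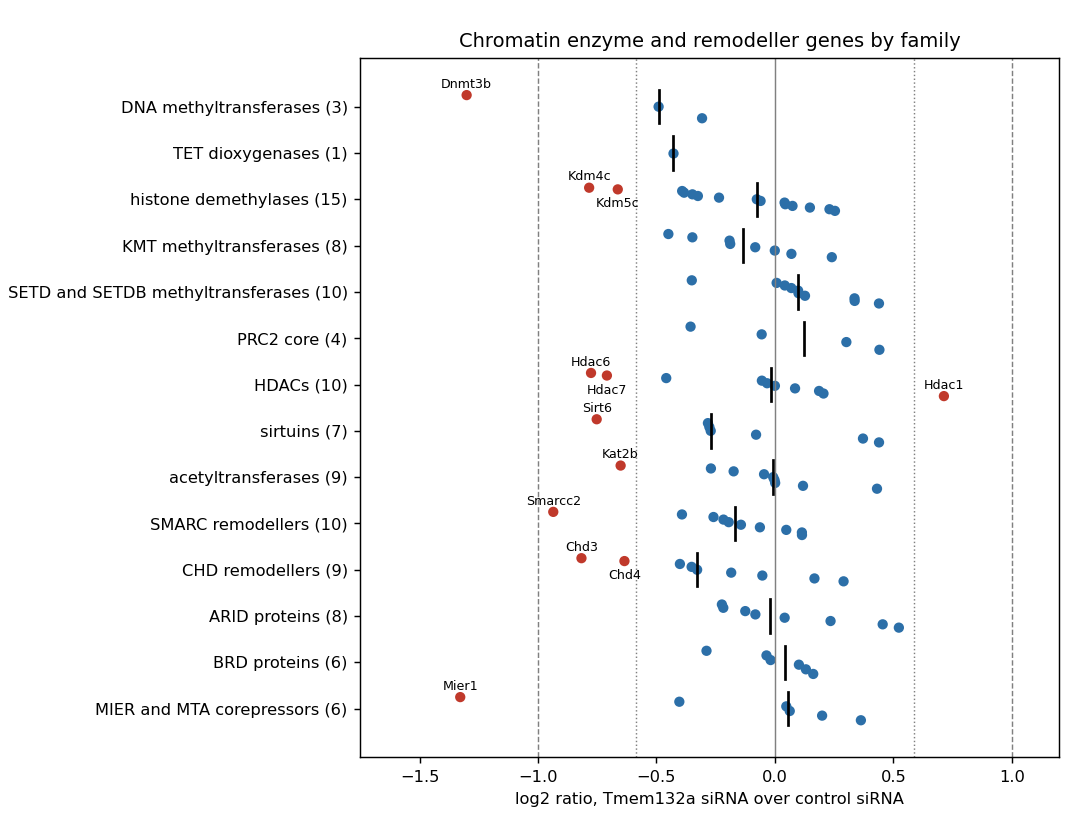
Gene log2 ratios (Tmem132a siRNA over control siRNA, 1 array each) of the 106 genes past the signal filter, by family with the number of genes in parentheses. Points are genes, black bars family medians, dotted and dashed lines 1.5-fold and 2-fold, and the named red points are the 12 genes at least 1.5-fold apart: 11 lie to the left of 0 and Hdac1 to the right.

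The reference promoters of the 3 genes with the lowest ratios, Mier1, Dnmt3b and Smarcc2, are shown because these genes differed most by the gene ratio. For Mier1 and Dnmt3b that ratio depends on dim probe sets, as described below. Each window runs from 250 bases before to 50 after an annotated RefSeq start (GRCm38.p6), on the plus strand. Capitals mark the GC box (GGGCGG or its reverse complement CCGCCC) and the CCAAT box (CCAAT or ATTGG). The E-box CACGTG and the CRE TGACGTCA, each its own reverse complement, were searched too, and no motif holds another. Mier1 has 2 annotated starts, and both are given.
Mier1, chr4:103115310-103115609: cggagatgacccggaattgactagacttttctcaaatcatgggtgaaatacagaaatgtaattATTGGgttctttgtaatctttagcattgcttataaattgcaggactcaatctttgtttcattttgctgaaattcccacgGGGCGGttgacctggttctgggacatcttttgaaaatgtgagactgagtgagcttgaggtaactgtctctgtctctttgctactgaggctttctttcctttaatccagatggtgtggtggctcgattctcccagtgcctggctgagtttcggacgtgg
Mier1, chr4:103119140-103119439: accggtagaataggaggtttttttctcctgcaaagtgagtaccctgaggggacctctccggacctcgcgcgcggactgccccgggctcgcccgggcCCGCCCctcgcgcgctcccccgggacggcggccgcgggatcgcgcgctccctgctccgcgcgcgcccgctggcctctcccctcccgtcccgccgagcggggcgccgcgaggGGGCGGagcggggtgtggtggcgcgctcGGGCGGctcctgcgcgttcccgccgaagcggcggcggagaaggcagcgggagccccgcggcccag
Dnmt3b, chr2:153649199-153649498: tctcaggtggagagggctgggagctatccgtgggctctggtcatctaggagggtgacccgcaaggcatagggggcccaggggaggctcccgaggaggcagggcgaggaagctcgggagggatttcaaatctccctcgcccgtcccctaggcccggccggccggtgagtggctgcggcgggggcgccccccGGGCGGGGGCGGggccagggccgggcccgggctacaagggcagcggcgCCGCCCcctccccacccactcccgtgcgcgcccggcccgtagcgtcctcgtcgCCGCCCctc
Smarcc2, chr10:128458986-128459285: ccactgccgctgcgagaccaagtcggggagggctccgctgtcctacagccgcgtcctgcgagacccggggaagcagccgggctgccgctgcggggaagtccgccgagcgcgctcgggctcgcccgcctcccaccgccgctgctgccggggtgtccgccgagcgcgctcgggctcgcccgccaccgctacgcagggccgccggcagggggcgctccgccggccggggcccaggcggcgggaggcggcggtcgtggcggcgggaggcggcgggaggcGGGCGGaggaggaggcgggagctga
The window at the first Mier1 start holds 7 CpG sites, 1 GC box and 1 CCAAT box, and that at the second start 49 CpG sites and 3 GC boxes. Dnmt3b has 30 CpG sites and 4 GC boxes, and Smarcc2 has 48 CpG sites and 1 GC box. Neither the E-box nor the CRE letters are in these 4 windows. RefSeq windows were matched for 93 of the 114 genes, 129 windows in all. A GC box is in 69% of the 129 and in 35.7% of all 32851 windows of this length, and a CCAAT box in 35.7% and 37.4%. The E-box is in 7 of the 129 (5.43%, against 7.15% of all windows) and the CRE in 0 (against 1.79%). The median number of CpG sites is 24 in windows of these genes and 7 in all windows. The windows were not split by whether a gene was expressed here, and a gene can have several windows. These shares thus show no trait of chromatin genes. The matches describe the reference sequence and show no binding.

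The 3 DNA methyltransferase genes past the filter, Dnmt1, Dnmt3a and Dnmt3b, were all lower with the Tmem132a siRNA, and 1 of them, Dnmt3b, passed 2-fold. Dnmt3b, a de novo methyltransferase, had signals of 152.2 and 34.6 on one probe set and 367.8 and 266.4 on the other, control siRNA first in each pair. Both were lower on the Tmem132a siRNA array, but by unequal amounts (-2.14 and -0.47), and the gene ratio of -1.30 (SD 1.18 over 2 probe sets) comes mostly from the dimmer one. By the brighter probe set alone Dnmt3b was under 1.5-fold.

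Dnmt1, which copies methylation after replication, had signals of 3586.9 and 2550.4, 4482.7 and 2754.3, and 1652.4 and 1362.8 on its 3 probe sets. All of them were lower, with ratios of -0.49, -0.70 and -0.28 and a mean of -0.49. Dnmt3a, the other de novo enzyme, had a ratio of -0.31, and its 4 probe sets past the filter ranged from -0.51 to -0.14. Dnmt3l, a cofactor with no catalytic activity of its own, did not pass the filter (6 and 49.1).

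Of the TET genes only Tet2 passed the filter. Its probe sets went from 714.6 to 584.7 and from 637.4 to 429.6, a gene ratio of -0.43. Tet1 and Tet3 stayed at or below 50.7 on either array, too dim to compare. Uhrf1, which brings DNMT1 to hemimethylated CpG sites, is on the companion list introduced below and was named after its value was seen. It was lower as well, from 5065.2 to 2785.9 and from 386.5 to 260.5 (-0.72). It had the lowest ratio of the 11 measured companions for DNA methylation and methyl-CpG reading. Of these, 6 lay below 0 and 5 above, with a median of -0.06.

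Histone demethylases differed both ways by small amounts: of 15 measured, 9 lay below 0 and 6 above, with a median of -0.08. The lowest was Kdm4c, which acts on methylated H3K9 and H3K36, at -0.78 from 332 to 192.8 on 1 probe set. Its relatives Kdm4a and Kdm4b had ratios of 0.04 and 0.07, and Kdm4d was dim (17.3 and 15.6).

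Kdm5c, an X-linked H3K4 demethylase, had the most probe sets, 9. Its 2 brightest went from 1176 to 754.3 and from 1125.7 to 707.9, and the 6 past the filter ranged from -1.43 to -0.00, with a gene ratio of -0.66 (SD 0.47). None of the 9 was higher with the Tmem132a siRNA. Without probe sets of the x, s and a kinds, which can share sequence with other transcripts, the ratio was -0.47. Of the related H3K4 demethylases, Kdm5b lay at -0.33 (from 286.5 to 176.2 on one probe set and from 937.7 to 971.5 on the other), Kdm5a at 0.15, Kdm1a at 0.04 and Kdm1b at -0.35, and Kdm5d was dim.

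The remaining demethylases lay between Kdm3a, an H3K9 demethylase, at -0.39 (4676.2 and 3564.8) and Kdm6a, an H3K27 demethylase, at 0.25. Kdm6b, which acts on the same mark, had a ratio of 0.23, over probe sets at 0.59, 0.21 and -0.11. Kdm7a lay at -0.38, Kdm2b at -0.24, Kdm2a at -0.08 and Kdm3b at -0.06.

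None of the 18 measured KMT and SETD genes reached 1.5-fold. KMT ratios lay mostly below 0 and SETD ratios mostly above, where 48.2% of all genes lay below. Several of these ratios were close to 0, and the difference between the families was not tested. Of the 8 KMT genes, 6 lay below 0 (median -0.14), led by Kmt2d, an H3K4 methyltransferase of enhancers, at -0.45 (1594.2 and 1167.3). Kmt2b had a ratio of -0.35, Kmt2c -0.19, Kmt5a -0.19, Kmt5c -0.08, Kmt2a -0.00, Kmt2e 0.07 and Kmt5b, an H4K20 methyltransferase, 0.24. The 6 probe sets of Kmt2e ran from -0.23 to 0.88, and the highest was a dim one (61.1 and 112.8).

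Of the 10 SETD and SETDB genes, 9 lay above 0 (median 0.10), or 8 when the median of all genes was set to 0. Setdb2 had a ratio of 0.44 (600.4 and 814.1). Setd1a, the catalytic subunit of an H3K4 methyltransferase complex, lay at 0.34 (1308 and 1651.8), and Setd2, which trimethylates H3K36, at 0.34 (912.6 and 1152). Setdb1, an H3K9 methyltransferase, lay at 0.13, Setd7 at 0.10, Setd6 at 0.07, Setd3, which methylates actin, at 0.04 and Setd1b at 0.01. Setd5 was the one below 0, at -0.35. The 3 probe sets of Setd4 disagreed in sign, with 360.8 against 217.1, 213.8 against 189.3 and 73.2 against 111.7, Tmem132a siRNA first, for a mean of 0.10.

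PRC2, the Polycomb complex that methylates H3K27, had genes on both sides of 0. Ezh2, its main catalytic subunit in dividing cells, went from 4760.9 to 3719.8 (-0.36). Ezh1, the alternative subunit of non-dividing cells, had a ratio of 0.44, from 226.2 to 280 and from 74.4 to 110.8. Eed lay at 0.30 (2284.8 and 2816.1), and Suz12 at -0.06 over 5 probe sets from -0.43 to 0.17. All 4 were within 1.5-fold, and the SD of probe sets around their gene mean was 0.37 over the 62 genes here with several probe sets.

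Deacetylases held the 1 gene that was at least 1.5-fold higher. Hdac1, a class I deacetylase of the NuRD, SIN3 and CoREST complexes, went from 1921.7 to 3150.9 on its only probe set (0.71), and 5.54% of all measured genes were as high or higher. Its close paralogue Hdac2 lay at -0.06, with probe sets at -0.16, -0.30 and 0.30, and Hdac3 had the same signal, 529.4, on both arrays. Hdac8 was dim (45.6 and 62.7).

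The class II enzymes Hdac6 and Hdac7 were lower. Hdac6, a mainly cytoplasmic tubulin deacetylase, went from 722.2 to 421.7 (-0.78), and Hdac7 from 342.5 to 209.5 (-0.71). Hdac5 lay at -0.46 (726.6 and 528.7), whereas Hdac4 had a ratio of 0.20, Hdac9 0.19, Hdac10 0.08 and Hdac11 -0.03. The ratios of Hdac6 and Hdac7 each rest on 1 probe set past the filter.

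Among the NAD-dependent sirtuins, 5 of 7 lay below 0 (median -0.27). Sirt6, a nuclear deacetylase, went from 303.2 to 180 (-0.75). Sirt1, Sirt3 and Sirt4 lay close together at -0.27, -0.28 and -0.28, and Sirt2 at -0.08. Sirt5, a mitochondrial desuccinylase, and Sirt7, a nucleolar enzyme, lay above 0 at 0.44 and 0.37 (1745.3 and 2258.3 for Sirt7).

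Acetyltransferases were mostly near 0, with a median of -0.01 over 9 genes. Kat2b, also called PCAF, had a ratio of -0.65 (SD 0.46) from 3 probe sets at -0.31, -1.17 and -0.48. The brightest of them had 2729.4 and 2209.4, and by it alone Kat2b was under 1.5-fold. The paralogue Kat2a lay at -0.00. Crebbp and Ep300, the broad coactivator acetyltransferases, lay at -0.27 and -0.17, Kat5 at -0.05, Kat6a at -0.01, Kat6b at 0.00, Kat8 at 0.12 and Kat7 at 0.43.

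**Figure D2:**
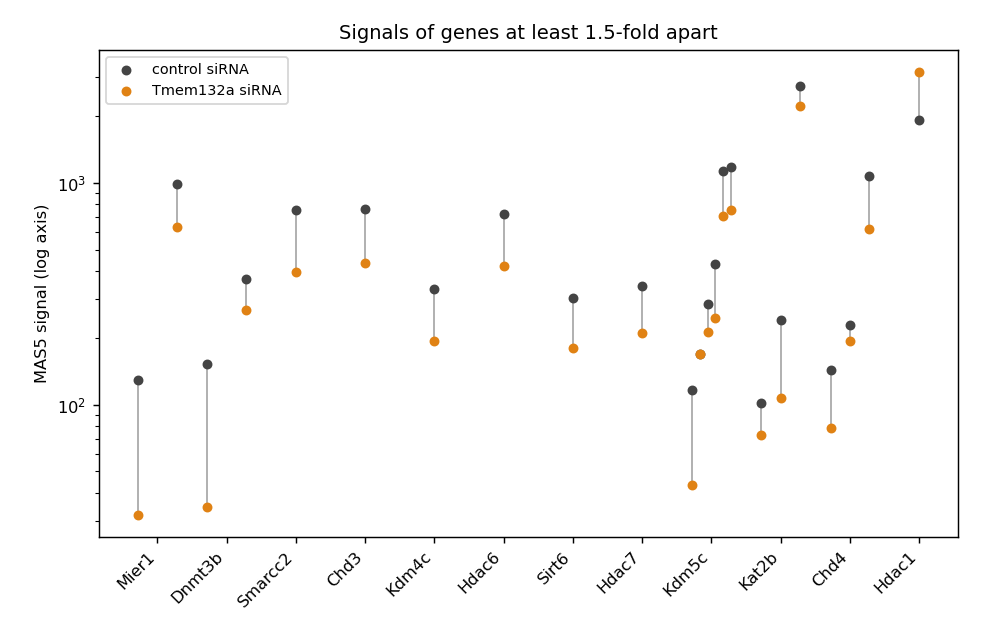
MAS5 signal on a log axis of every probe set past the filter for the 12 genes at least 1.5-fold apart, 1 array per group; grey lines join the control siRNA (dark) and Tmem132a siRNA (orange) signals of a probe set. Hdac1 is the only gene with the orange point above, and the widest gaps, in Mier1 and Dnmt3b, are those of dim probe sets that end at 32 and 34.6.

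The lowest remodeller gene was Smarcc2, which encodes the BAF170 scaffold of the BAF complex. It went from 754.9 to 394.7 on 1 probe set (-0.94), and 2.97% of all measured genes were as low or lower. Smarcc1, its paralogue BAF155, lay at -0.06 over 3 probe sets, and the ATPase gene Smarca4 at 0.05 (4447.8 and 4438.4). The alternative ATPase gene Smarca2 lay at -0.14, from probe sets that went opposite ways (670.7 to 422.1, and 73.4 to 95.6).

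The other SMARC and ARID1 subunits of BAF past the filter were within 1.5-fold. Smarcd2 lay at -0.39, Smarce1 at -0.26, Arid1a at -0.22, Smarcd1 at -0.20, Arid1b at -0.13 and Smarcb1 at 0.11, while Smarcd3 was dim. Outside BAF, the ISWI ATPase gene Smarca5 lay at 0.11, Smarcad1 at -0.22, and Smarca1 was dim (13 and 47). Of the companion genes introduced below, Phf10, a subunit of the PBAF form, lay at 0.84 (from 3928.9 to 6223.2 and from 420.2 to 850.9) and the BAF subunit gene Bcl7b at 0.62 (433.7 and 666.4).

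CHD remodellers had 7 of 9 genes below 0 and a median of -0.33. Chd3 and Chd4, the ATPases of NuRD, were the lowest. Chd3 went from 763.3 to 433.4 (-0.82), and Chd4 from 1066.3 to 616.1, 143.6 to 78.4 and 227.7 to 192.7 (mean -0.64, SD 0.34). Without probe sets of the x, s and a kinds Chd4 had only the last of these, at -0.24. Those left out, the brightest among them, are of the a kind.

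The neuronal NuRD ATPase gene Chd5 had a ratio of -0.35 on 1 probe set (152.6 and 119.6). Chd6 lay at -0.40, Chd1 at -0.33, Chd8 at -0.18 and Chd9 at -0.05, and above 0 lay Chd7, mutated in CHARGE syndrome, at 0.17 and Chd2 at 0.29. NuRD subunits outside the ATPases lay on both sides of 0. In a set of 14 NuRD genes drawn up after the values were seen, 9 lay below 0 and the median was -0.09, with Hdac1 the highest and Chd3 the lowest.

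MTA proteins are the scaffolds of NuRD, and MIER proteins are related scaffolds that recruit HDAC1 and HDAC2. Mier1 had the lowest ratio of the 106 genes, -1.33 (SD 0.97). One probe set went from 990.3 to 633.2 (-0.65) and the other from 129 to 32 (-2.01). Another, below the filter, went the opposite way, from 5.6 to 71.6, and with no signal filter the gene ratio was -0.12.

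Mier2 and Mier3 lay at 0.20 and 0.06, all of their probe sets within 1.5-fold. Mta1 had a ratio of -0.40 (1163.1 and 879.4), Mta2 one of 0.05 and Mta3 one of 0.36. The Mta3 probe sets were at 0.47, 0.72 and -0.11.

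ARID and BRD genes held no member at 1.5-fold. Arid3a and Arid5a, which are not BAF subunits, lay at 0.52 (288 and 413.9) and 0.45, Arid5b at 0.23, Arid4b at 0.04, Arid4a at -0.08 and Arid3b at -0.22. The acetyl-lysine readers Brd1, Brd9, Brd2, Brd8 and Brd3 lay at 0.16, 0.10, -0.04, -0.02 and -0.29. Brd7, a PBAF subunit, had a mean of 0.13 that describes neither of its probe sets: one went from 639.6 to 1329 (1.05) and the other from 201.2 to 116.1 (-0.79).

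Probe sets of these genes often disagreed, in size or in direction. In 8 of the 62 genes with several probe sets past the filter, they lay at least 1.0 apart on the log2 scale. These were Brd7, Dnmt3b, Kdm5c, Mier1, Setd4, Kmt2e, Brd8 and Smarca2. In Dnmt3b, Kdm5c and Mier1 all probe sets past the filter lay below 0, so these differed in size only. The share over the whole array was not counted, so the 8 show no trait of these genes. Of the 34 genes with exactly 2 probe sets past the filter, 15 had both on the same side of 0 (44.1%), against 65.8% of 2904 genes on the whole array. Gene ratios also spread less here (SD 0.36, against 0.49 over all genes), and probe sets of a gene near 0 fall on opposite sides more easily. The part of this in the lower share was not tested. Only 1 gene, Mier1, had several probe sets past the filter that were all at least 1.5-fold apart in the same direction. This too was not counted over the whole array. Of the 12 genes at 1.5-fold, 7 rest on 1 probe set. With a pseudocount of 79.2 added to all signals, which damps dim probe sets, Sirt6 (-0.56), Hdac7 (-0.55), Kdm5c (-0.48), Chd4 (-0.46) and Kat2b (-0.44) were under 1.5-fold, and Mier1 (-0.75) and Dnmt3b (-0.70) under 2-fold. The SD of single probe sets around their gene mean was 0.37 here and 0.39 over 5072 genes of the array. For a gene with 1 probe set, a ratio under about that size lies within the disagreement of probe sets. A mean over several probe sets can vary less, and dim probe sets vary more. This SD holds no error between arrays or cultures, so it does not place a larger ratio beyond such error.

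**Figure D3:**
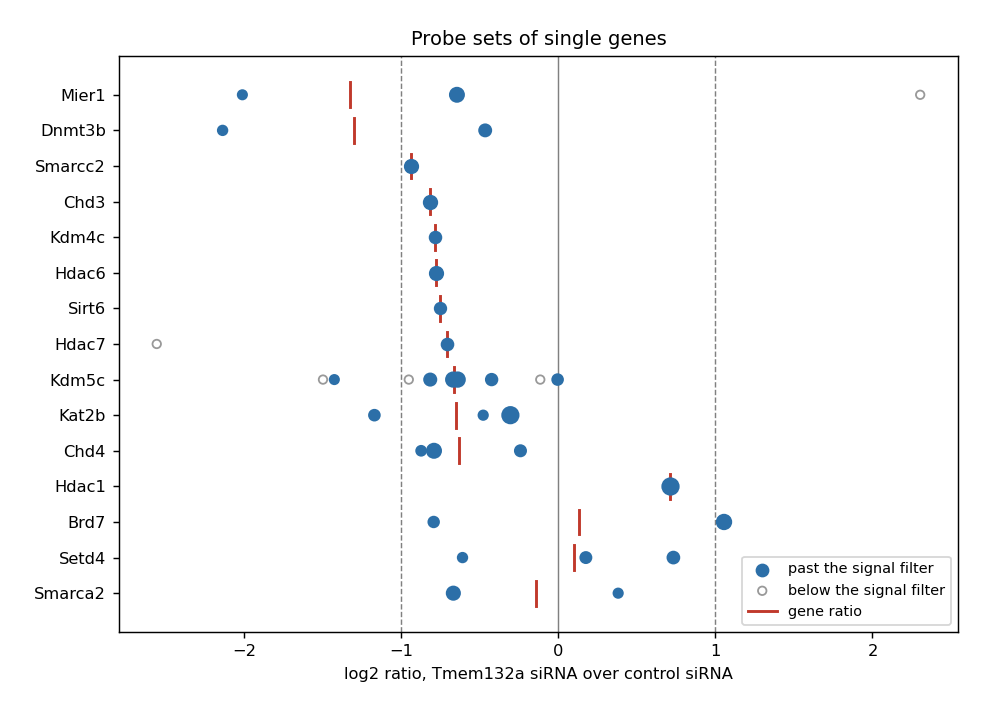
Log2 ratio of each probe set (Tmem132a siRNA over control siRNA) for the 12 genes at least 1.5-fold apart and for Brd7, Setd4 and Smarca2. Filled points passed the signal filter and are larger where the mean signal is higher, open points did not pass, and red bars are gene ratios; Mier1, Dnmt3b and Brd7 have filled points far apart.

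**Figure D4:**
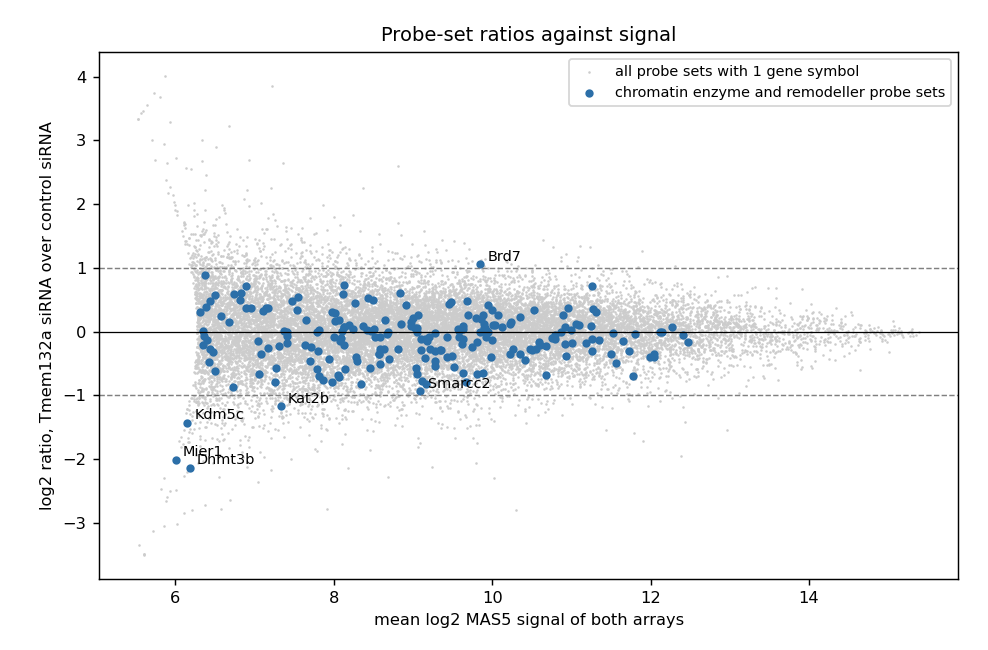
Log2 ratio against the mean log2 MAS5 signal for all probe sets past the filter with 1 symbol (grey) and for the 215 of chromatin enzyme and remodeller genes (blue). Ratios spread more at low signal, where the probe sets of Mier1, Dnmt3b and Kdm5c with the lowest ratios lie, and the 2-fold lines are passed by 1 blue probe set upwards and by 4 downwards.

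A companion list of 123 further chromatin genes, which the symbol rule did not take, gave 115 genes with a probe set of their own and 110 past the filter. Their median was -0.05, 5 (4.55%) were at least 1.5-fold higher and 6 (5.45%) lower, against the 8.82% and 9.11% of all genes, and 1 was at least 2-fold apart. Ehmt2, the H3K9 methyltransferase G9a, had the lowest ratio at -0.94, from 1995.2 to 963.9 and from 298.2 to 167.8. Ncoa1, a nuclear receptor coactivator, lay at -0.85, Cxxc1, the CpG-binding subunit of the SETD1 complexes, at -0.81, Carm1, an arginine methyltransferase, at -0.79 and the CoREST subunit gene Rcor2 at -0.73. By their brighter probe set alone, Ncoa1 (-0.54) and Cxxc1 (-0.46) were under 1.5-fold. Higher were Phf10 (0.84), the PRC2 accessory gene Phf19 (0.78), the histone acetyltransferase gene Hat1 (0.69, from 2710.6 to 4359.3) and Bcl7b (0.62). The only Phf19 probe set past the filter was dim (71.4 and 122.7).

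Jmjd6, an oxygenase of the JmjC family, was the companion at 2-fold, with a mean of 1.31. Its 2 bright probe sets hardly differed (3022.3 and 2856.2, 2516.1 and 2498.4), and the mean comes from another that went from 9.3, below the floor of 14.5 at which low signals were set, to 233.9. By role, the companion medians were -0.06 for DNA methylation and methyl-CpG reading (11 genes), 0.06 for other methyltransferases (19), -0.12 for Polycomb (25) and 0.21 for other demethylases (6). They were 0.01 for other acetyltransferase genes (14), -0.13 for corepressors (10) and -0.04 for other remodeller subunits (25).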

How the data were processed

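The deposited table holds 1 linear signal intensity per probe set and array, made by the authors with MAS5 per the submitters' processing notes; a version was not given. Detection calls, which the series text mentions for choosing genes, were not used. Both arrays had a 2% trimmed mean of 500.003 and were set to 1 trimmed mean again after 64 control probe sets were left out. Of 45037 probe sets, 34945 had 1 symbol in the platform annotation, 932 had several and 9160 were not listed.

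Signals below 14.5 (the 20th percentile) were set to that floor, log2 ratios were taken, and the probe sets of a gene past the filter (77.25) were averaged. Groups came from the sample titles. No test was made, and genes were counted at 2-fold and 1.5-fold. Genes named are those at 1.5-fold, the extremes and the brightest of each of the 14 families, those with probe sets at least 1.0 apart, the measured DNA methyltransferase, TET, PRC2, MIER and MTA genes, and companions at 2-fold; others are given as members of their family or, for companions at 1.5-fold, were chosen after their values were seen. The members and lists were chosen with earlier results of these data known. The calculation was tested on simulated data, with known changes put into genes that had a bright probe set on the control array. The simulated noise was the same at every signal, so the wider spread of dim probe sets was not covered. Python 3.11.15, numpy 2.4.6, pandas 2.3.3, statsmodels 0.14.6 and matplotlib 3.10.9 were used.

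The 10 alternatives concerned scaling (none, quantile normalization, loess with span 0.3, or a median ratio of 0), the filter (none, or 462.8, the 75th percentile), the floor (none, or a pseudocount of 79.2 instead) and probe sets (the brightest only, or those with no x, s or a suffix).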

Additional observations from a re-analysis of the deposited data

How the results depend on the processing

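No paired analysis was possible because each group had 1 array. The median of the chromatin genes lay between -0.08 and -0.04 under all 10 alternatives. The count of genes at least 2-fold lower, 2 as reported, was 0 with the 75th percentile filter, with the pseudocount and by the brightest probe set, and 1 without suffixed (x, s or a) probe sets. The count at least 2-fold higher was 2 with no signal filter, and 1 with the 75th percentile filter and by the brightest probe set, where Brd7 entered (1.05). At 1.5-fold, the higher count of 1 became 5 with no filter, 3 with the 75th percentile filter, 4 by the brightest probe set and 2 without suffixed ones. The lower count of 11 became 7 with the 75th percentile filter and 6 with the pseudocount. The shares over all genes moved as well. With the 75th percentile filter, 5.71% of all genes were at least 1.5-fold higher and 6.74% lower, against 8.82% and 9.11% as reported. Shares under the other settings are not given here, so the changes in these counts show no trait of these genes. The companion median was 0.028 with no filter and -0.0050 without suffixed probe sets, and Jmjd6 was at -0.046 with the 75th percentile filter and -0.082 by its brightest probe set. The cause was not tested, except that stricter filters leave fewer genes (80 of 106) and that dim probe sets enter without one. Smarcc2, Chd3, Hdac6 and Hdac1 were at least 1.5-fold apart under all 10 alternatives, and Kdm4c under the 9 that gave it a value. Dim signals limit Mier1 and Dnmt3b, which kept 2-fold under 6 of 10 and 6 of 8 alternatives.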

Other observations

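Some dim probe sets of these genes differed far more than the bright ones of the same gene. Of the 71 below the signal filter, the Tmem132a siRNA array had 9 that were 2-fold or more higher and 7 that were 2-fold or more lower. The same share over all dim probe sets of the array was not counted, so these counts show no trait of these genes. Of the 71, 39 were under the floor of 14.5 on at least 1 array, so that ratios from them are bounds or have no order. A dim probe set of Kdm6a, the X-linked H3K27 demethylase, went from 4.4 to 108.1, while its probe sets past the filter went from 305.2 to 428.7 and from 352.1 to 356.2. One of Arid4b, a SIN3 complex subunit gene, went from 6.5 to 76.1, against 1089.5 and 1142.3 on the bright probe set. In the opposite direction, a Kdm2a probe set went from 86.7 to 10.8, against 1563.5 and 1295.4 on its brightest, and one of Setd6 from 57.1 to 9, against 987.8 and 983.5. Hdac7 had a dim probe set that went from 85.3 to 7.4, the same direction as its bright one. These probe sets were chosen after their values were seen.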
